A study of Mus musculus with 108 samples.

Results

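The axon guidance ligands and receptors were 67 genes of the 21942 protein-coding rows, and of the 53465 rows in all, of a bulk RNA-seq count table from the mouse brain. They were taken by symbol alone: the semaphorins of classes 3 to 7 and their plexin receptors, the ephrins and Eph receptors, the Slits and their Robo receptors, the netrins with Dcc and the Unc5 receptors, and the neuropilin Nrp2. By family they were 20 semaphorins, 9 plexins, 14 Eph receptors, 8 ephrins, 3 Slits, 4 Robos, 3 netrins (Ntn1, Ntn4 and Ntn5), 4 Unc5 receptors, Dcc and Nrp2, or 34 ligands and 33 receptors. All 67 passed the filter on low counts over the 102 libraries used.

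The series compared wild-type mice (WT) with mice heterozygous for a germline loss-of-function allele of Cul3 (Cul3+/-, here HET), a gene for the scaffold of a ubiquitin ligase. The allele is a frame-shifting insertion of 1 bp in exon 6, made with CRISPR/Cas9 in the germline, and carriers were backcrossed to the background strain. Both genotypes share that strain, given in the labels as C56Bl/6N and in the study's methods as C57BL/6N. The labels name no other allele, no treatment and no sex. Cortex (CX), hippocampus (HIP) and cerebellum (CB) were taken at the embryonic stage E17.5, at postnatal day 7 (P7) and in the adult (P35). Each group held 6 mice at E17.5 and P7 and 5 in the adult, because 2 adult mice with conflicting genotype records were left out, and the regions of one age came from the same mice.

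Growing axons steer by cues that are secreted or held on the surface of other cells. Class 3 semaphorins act through neuropilins and plexins, and most other semaphorins bind plexins directly. Ephrins and Eph receptors signal in both directions at cell contacts, Slits repel through Robo receptors, and netrins attract through Dcc or repel through Unc5 proteins. Many of the same genes are used again after birth, in dendrite growth, synapse formation, vessel patterning and glial cells.

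Library totals ran from 15126114 to 44411282 estimated read counts, with a median of 32663960. Of 240 pairs of replicates, 0 held identical values. Cul3 in HET mice stood at 50.2% to 61.0% of its WT mean and did not overlap between genotypes in any of the 9 datasets. Emx1, a forebrain marker, and En2, a cerebellar marker, picked from longer lists, separated CB from CX and HIP in means over both genotypes. Emx1 was at or under 0.0371 counts-per-million (CPM) in CB and at or above 8.08 CPM in CX and HIP. En2 was at 83.9 to 138.1 CPM in CB and at or under 0.541 CPM in CX and HIP. Some listed markers did not follow: at E17.5 Fibcd1 (hippocampus list) was at 21.8 CPM in CB and 19.1 CPM in HIP, and Gabra6 (cerebellum list) at 0.0347 and 0.191 CPM. The 6 hippocampus markers summed in WT libraries to 1032 to 2214, 718 to 941.4 and 582.5 to 772 CPM in HIP at the 3 ages. In CX they summed to 360.8 to 724, 191.3 to 321.5 and 132.4 to 161.8 CPM. In 15 of the 102 libraries, all of HIP or CB, the summed choroid plexus markers (6 of 6 found) lay above 500 CPM, with the next library at 348.7 CPM. In 2 of the 10 adult CB libraries, WT replicates 3 and 5, hippocampus markers (6 of 6 found) summed to 346 and 257.5 CPM, against at most 149.7 CPM in the other 8. In bulk tissue, fewer cells of a type and less RNA per cell cannot be told apart.

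The families were expressed over a wide range. Compared per kilobase of transcript, Epha4, an Eph receptor that binds both ephrin classes, had the highest mean over the 9 WT groups, 55.65 CPM per kb, and reached 119.2 CPM per kb in E17.5 HIP. It was followed by the membrane-anchored semaphorin Sema7a (31.05 CPM per kb), Efnb3 (30.5), Plxnb2 (24.8) and Plxna1 (22.04). Epha1 was the lowest at 0.0415 CPM per kb, and Ntn5 (0.311), Epha2 (0.453) and Sema3b (0.503) were next. The lowest and highest WT group means of Sema4f differed by only 1.84-fold and those of Robo4 by 1.86-fold, whereas Slit1 spanned 213-fold, Sema3c 87.3-fold, Plxnb3 81.6-fold, Robo3 68.6-fold, Efna4 64.8-fold, Dcc 59.6-fold and Nrp2 42.9-fold. Ntn5 spanned 727-fold, against an E17.5 CB mean of 0.00459 CPM.

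**Figure D1:**
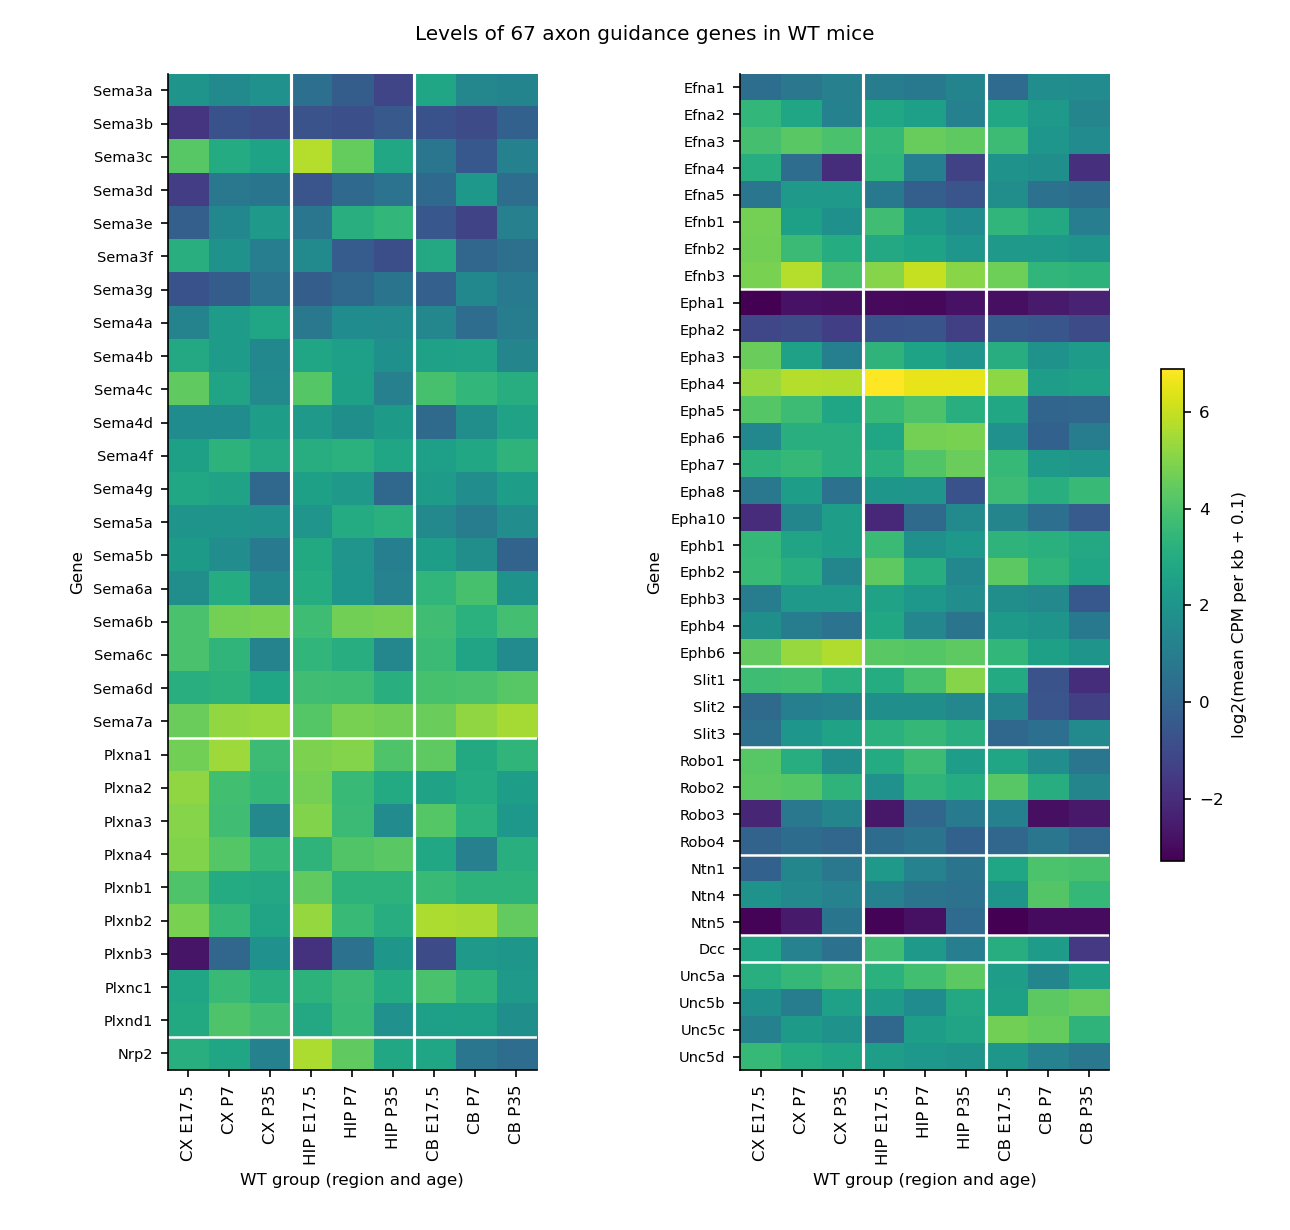
Mean level of each of the 67 genes (rows, with white lines between families) in the 9 WT groups (columns), as log2 of mean CPM per kilobase plus 0.1, n = 6 mice per group at E17.5 and P7 and 5 at P35. The brightest cell is Epha4 in E17.5 HIP (119.2 CPM per kb), Epha1 and Ntn5 hold the darkest cells, and Slit1 is bright in P35 HIP and dark in P35 CB.

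The first comparison asked how these genes changed between successive ages in WT mice of each region. A gene was counted as higher or lower when its change was at least 2-fold and its adjusted p was under 0.05 in edgeR's quasi-likelihood test with Benjamini-Hochberg adjustment over all genes tested. From E17.5 to P7, 17 of 66 members rose and 13 fell in CX, where 22.8% of all genes rose and 14.5% fell. In HIP 9 rose and 16 fell, against 17.7% and 13.0% of all genes. In CB 8 rose and 25 fell, against 9.92% and 10.0% of all genes, so that falls made up 37.9% of the members tested there. From P7 to P35 the count of members that fell exceeded the count that rose in every region. It was 5 up and 14 down in CX (all genes 10.3% and 11.4%), 5 up and 14 down in HIP (7.84% and 10.0%), and 6 up and 17 down in CB (16.5% and 17.53%). The median log2 change of the members was 0.11, -0.16 and -0.62 for the first step in CX, HIP and CB, and -0.32, -0.45 and -0.29 for the second, while the median over all genes stayed between -0.03 and 0.01.

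Members differed in how often they changed over the 6 steps (2 steps in each of 3 regions). Of the 67, 39 rose in no step (58.2%, against 61.8% of the 19811 genes tested), 19 fell in no step (28.4% against 62.8%), and 9 rose or fell in none (13.4% against 37.7%). The 19811 were tested in at least 1 region, and untested steps counted as no change. That raises these all-gene shares and can lower the share that fell in 6 steps. Among members only Epha1 and Ntn5 had untested steps. Plxna3, a receptor subunit for class 3 semaphorins, was the one member that fell in 6 of 6 steps, as did 0.202% of all genes. Efna4, a membrane-anchored ephrin, and Robo1, a Slit receptor, fell in 5, and Plxnb3, a plexin that binds Sema5a, rose in 5. The 250 bases upstream of a RefSeq start of these 4 genes are shown because they are the members that moved one way in at least 5 steps. They are from RefSeq on GRCm38.p6, 5′ to 3′ on the gene's strand, and capitals mark a GC box (GGGCGG) or a CCAAT box (CCAAT) on either strand.
Plxna3, chrX:74328816-74329065, plus strand: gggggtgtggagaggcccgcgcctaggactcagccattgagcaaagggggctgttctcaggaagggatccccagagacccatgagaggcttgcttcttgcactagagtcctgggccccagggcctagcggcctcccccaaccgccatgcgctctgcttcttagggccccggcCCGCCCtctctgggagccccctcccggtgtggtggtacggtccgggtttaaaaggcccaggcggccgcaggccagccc
Efna4, chr3:89338029-89338278, minus strand: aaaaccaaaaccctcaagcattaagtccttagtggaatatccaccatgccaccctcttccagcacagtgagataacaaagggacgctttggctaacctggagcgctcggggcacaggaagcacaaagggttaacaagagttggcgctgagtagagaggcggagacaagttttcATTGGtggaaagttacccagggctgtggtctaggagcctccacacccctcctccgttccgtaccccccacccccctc
Robo1, chr16:72662899-72663148, plus strand: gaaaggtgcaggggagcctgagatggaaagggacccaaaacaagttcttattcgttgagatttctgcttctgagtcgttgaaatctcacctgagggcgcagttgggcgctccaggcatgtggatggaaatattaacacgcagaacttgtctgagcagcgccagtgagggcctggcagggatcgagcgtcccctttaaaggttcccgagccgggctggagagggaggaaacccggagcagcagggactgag
Plxnb3, chrX:73756853-73757102, plus strand: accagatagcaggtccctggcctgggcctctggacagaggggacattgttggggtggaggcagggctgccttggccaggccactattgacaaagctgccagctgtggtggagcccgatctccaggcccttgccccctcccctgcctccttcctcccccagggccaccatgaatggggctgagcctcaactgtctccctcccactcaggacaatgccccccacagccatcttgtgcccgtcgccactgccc

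The windows belong to 1 RefSeq start each. For Robo1 that start lies inside the gene as annotated for the counts, which begins at 72308306, and the Plxnb3 window runs past the first base annotated for that gene, 73757090. The Plxna3 window held 1 GC box on the other strand, 78 to 73 bases upstream of the start, and the Efna4 window 1 CCAAT box on the other strand, 77 to 73 bases upstream. The Robo1 and Plxnb3 windows held neither, no window of the 4 held a TATA box (TATAAA), and no motifs overlapped. A promoter window was found for 57 of the 67 members, 73 windows in all. The GC box was in 51 of those 73 windows (69.9%) and in 32.7% of all 32851 windows of the table, and the median number of CpG dinucleotides was 16 against 6. The CCAAT box was in 27.4% of member windows against 33.8% of all windows, and the TATA box in 2.74% against 12.4%. These are matches of letters and describe the windows only.

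Plxna3 declined with age in each region. In CX its lowest, median and highest WT values were 235, 262 and 298 CPM at E17.5, then 96.9, 105 and 125 CPM at P7. At P35 the 5 WT libraries of CX lay between 18.8 and 23.6 CPM. The 3 ages did not overlap. The log2 changes were -1.33 ± 0.071 (SE) and -2.29 ± 0.080 in CX, -1.35 ± 0.077 and -2.02 ± 0.085 in HIP, and -1.02 ± 0.098 and -1.08 ± 0.10 in CB. The first CB step lay close to the 2-fold limit and was no longer counted in 3 of 17 fits that each left out 1 WT replicate.

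Efna4 fell at both steps in CX and HIP and only after P7 in CB. In HIP it had a WT median of 15.1 CPM at E17.5 (range 10.9 to 22.7), 3.18 CPM at P7 (2.61 to 4.30) and 0.479 CPM at P35 (0.207 to 0.692). In CB it was at 5.76 CPM at E17.5 (5.07 to 7.003) and 5.56 CPM at P7 (4.17 to 6.46), groups that overlapped, and then at 0.246 CPM at P35 (0.178 to 0.330). The change from P7 to P35 in CB was a 20.2-fold fall (log2 -4.33 ± 0.17, adjusted p 3.59e-14), and the first step in CX was a 7.23-fold fall.

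Robo1 fell in both steps in CX, from a WT median of 321 CPM at E17.5 to 138 CPM at P7 and 53.3 CPM at P35. In HIP it was higher at P7 (179 to 244 CPM) than at P35 (76.9 to 95.3 CPM), and its E17.5 values of 54.5 to 189 CPM overlapped those of P7. In CB its falls of log2 -1.01 ± 0.11 and -1.06 ± 0.12 were both near the limit, and leaving out single WT replicates ended the call in 5 of 17 fits for the first and 1 of 17 for the second.

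Plxnb3 moved the other way. In CX its WT values were 0.175, 0.284 and 0.640 CPM (lowest, median and highest) at E17.5, then 5.37, 5.73 and 8.27 CPM at P7. The 5 values at P35 ran from 20.6 to 25.4 CPM. Its rises were 17.35-fold and 3.799-fold in CX, 6.99-fold and 3.16-fold in HIP, and 9.99-fold in CB for the first step. In CB the P7 values (16.7 to 35.7 CPM) and the P35 values (17.2 to 40.5 CPM) overlapped. The 6 oligodendrocyte markers rose over the same ages. Their sum in WT libraries was 30.01 to 43.1, 143 to 191 and 3574 to 4676 CPM in CX at the 3 ages, and 60.4 to 76.2, 404 to 2066 and 2508 to 5600 CPM in CB. The part of these cells in the rise of Plxnb3 was not tested.

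**Figure D2:**
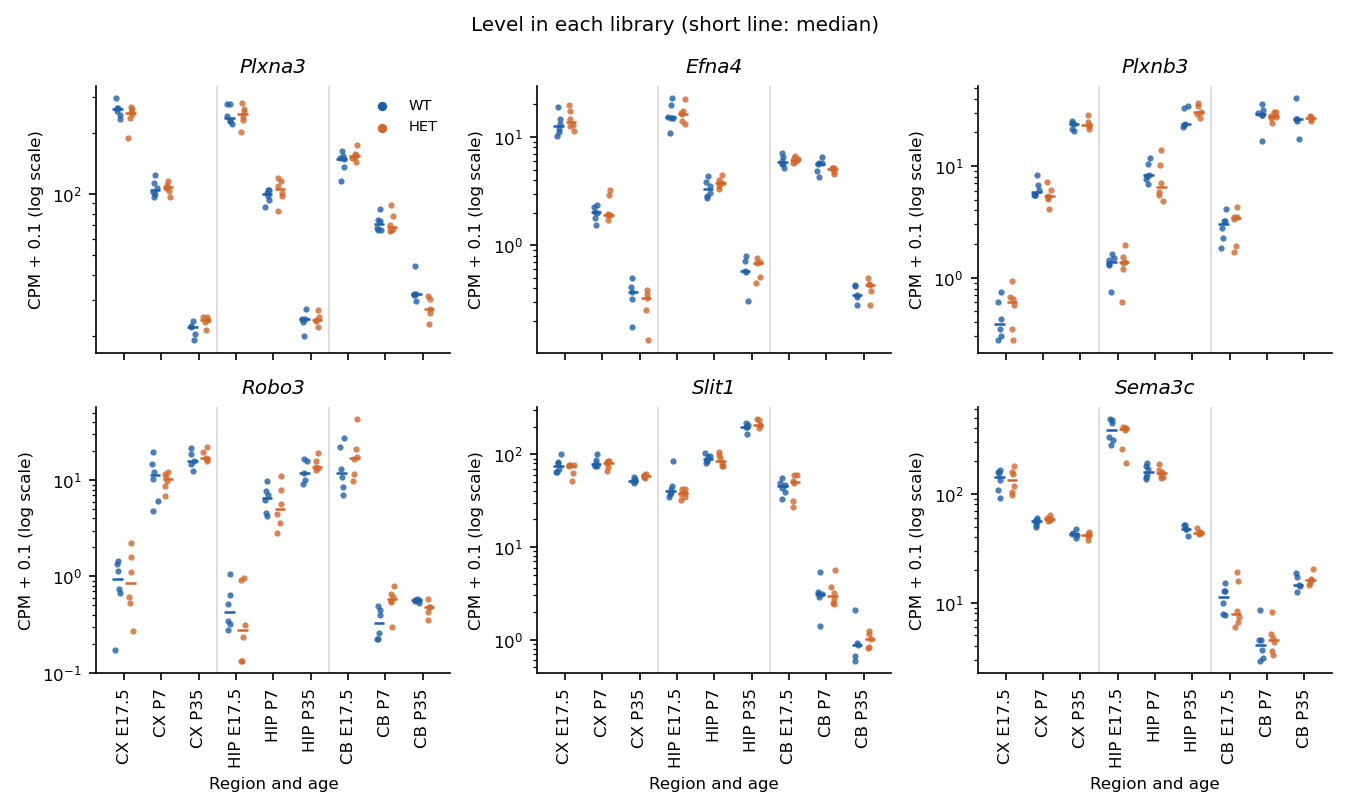
Level of Plxna3, Efna4, Plxnb3, Robo3, Slit1 and Sema3c in each library (points, CPM plus 0.1 on a log axis) by region and age, WT in blue and HET in orange, with a short line at each group's median. Plxna3 falls at each step in all regions, Plxnb3 rises from E17.5 to P7 in all regions, and Robo3 is low in CX and HIP and high in CB at E17.5 and the reverse at P7.

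Among the semaphorins, 5 of 20 rose and 3 fell in CX from E17.5 to P7 (all genes 22.8% and 14.5%). In HIP 1 rose and 3 fell (17.7% and 13.0%), and in CB 3 rose and 5 fell (9.92% and 10.0%). Sema3c and Sema3f, secreted class 3 cues, and the membrane protein Sema4c in CX and HIP, fell at this step: Sema3c by 2.55-fold in CX, 2.43-fold in HIP and 2.498-fold in CB, and Sema3f by 2.46-fold, 4.00-fold and 7.57-fold. Sema3e, a secreted ligand of Plxnd1, rose 3.40-fold in CX and 5.67-fold in HIP at the first step, and 6.38-fold in CB at the second, where WT values went from 1.67 to 5.28 CPM at P7 to 17.2 to 21.15 CPM at P35. Sema3d rose 4.11-fold in CB before P7, to a WT median of 36.1 CPM, and fell 3.60-fold after it. Sema4g, a membrane semaphorin, fell 5.73-fold in CX and 4.43-fold in HIP after P7. In P7 CX, WT replicate 4 stood at 83.8 CPM for Sema4g against 47.9 CPM in the next highest library, and hippocampus markers in that library summed to 321.5 CPM against 191 to 224 CPM in the other 5.

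At the first step 4 of 9 plexins fell in CX and HIP (Plxna2, Plxna3, Plxnb1 and Plxnb2), where 14.5% and 13.0% of all genes fell. In CB 3 plexins fell (Plxna1, Plxna3 and Plxna4), against 10.0% of all genes. Besides Plxnb3, the one plexin that rose at this step was Plxnd1, in CX (2.20-fold). Plxna4, which pairs with neuropilins, went in CB from a WT median of 92.75 CPM at E17.5 to 28.8 CPM at P7 and 105 CPM at P35, log2 changes of -1.68 ± 0.19 and 2.05 ± 0.20. The semaphorin co-receptor Nrp2 fell 2.41-fold and then 3.05-fold in HIP, from 535 to 672 CPM in WT libraries at E17.5 to 71.3 to 88.75 CPM at P35. It also fell at the second step in CX (log2 -1.51 ± 0.27) and at the first in CB (log2 -2.09 ± 0.19).

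Among the ephrins, Efna4 and Efnb1 fell at the first step in CX and HIP, Efnb1 by log2 -2.30 ± 0.18 and -1.54 ± 0.16. In CB Efnb1 fell 3.50-fold after P7. Of 14 Eph receptors tested in CB, 0 rose and 7 fell from E17.5 to P7 (Epha3, Epha4, Epha5, Epha6, Epha7, Epha10 and Ephb6). Of all genes 9.92% rose and 10.0% fell there. In CX 4 of 13 Eph receptors rose and 1 fell (all genes 22.8% and 14.5%). Epha4 in CB went from 216 to 345 CPM at E17.5 to 34.7 to 45.25 CPM at P7, a 7.11-fold fall, and WT values of 43.0 to 48.6 CPM at P35 overlapped those at P7. Epha3 fell 4.31-fold in CX and 2.30-fold in CB at the first step. Epha8 rose 3.16-fold in CX before P7, then fell 3.90-fold in CX and 7.76-fold in HIP. Ephb1 fell in HIP at the first step (log2 -1.85 ± 0.19), and Ephb3 fell 4.36-fold in CB at the second.

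From E17.5 to P7 in CB, Slit1 fell 14.4-fold and Slit2 4.38-fold, and the Slit receptors Robo1, Robo2 and Robo3 fell. The Robo1 step in CX did not differ detectably from that in CB (difference -0.23 ± 0.26, adjusted p 0.448, edgeR). Slit1 is a secreted repellent that is made in brain neurons. Slit1 had WT values of 33.0 to 54.95 CPM at E17.5, 1.31 to 5.33 CPM at P7 and 0.482 to 1.99 CPM at P35 in CB. The highest of the 5 adult values was WT replicate 3, one of the 2 CB libraries with more hippocampal marker signal, and the next was 0.819 CPM. In HIP Slit1 rose 2.20-fold after P7, where WT values ran from 80.5 to 103 CPM at P7 and from 166 to 218 CPM at P35. Slit3 rose in CX at the first step and in CB at the second, the latter call being lost without WT replicate 3 at P35 (log2 0.93 against 1.19).

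Netrins and their receptors gave some of the largest changes. Ntn4, a laminin-related netrin, rose 4.55-fold and Ntn1 2.42-fold in CB before P7. Ntn5 was counted as higher in 4 of 4 steps tested, all in CX and HIP, from values of 0 to 0.0586 CPM at E17.5. It passed the filter of at least 10 counts there through its P35 level. Its first steps thus compare 2 groups near the floor and are no sign of a rise before P7, and its CB steps were not tested. After P7 it rose 22.01-fold in CX (0.0870 to 0.265 CPM at P7, 1.56 to 4.90 CPM at P35) and 25.8-fold in HIP. Dcc, the attractive netrin receptor, fell 21.0-fold in CB after P7. Its 6 WT values ran from 50.9 to 73.2 CPM at P7 and its 5 values from 2.10 to 4.58 CPM at P35. Dcc also fell in CX (2.95-fold) and HIP (3.02-fold) before P7, and in HIP again after it (2.23-fold). Unc5b, a repulsive netrin receptor also found on vessels, rose 3.65-fold in CB before P7, and 3.09-fold in CX and by log2 1.24 ± 0.11 in HIP after it.

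**Figure D3:**
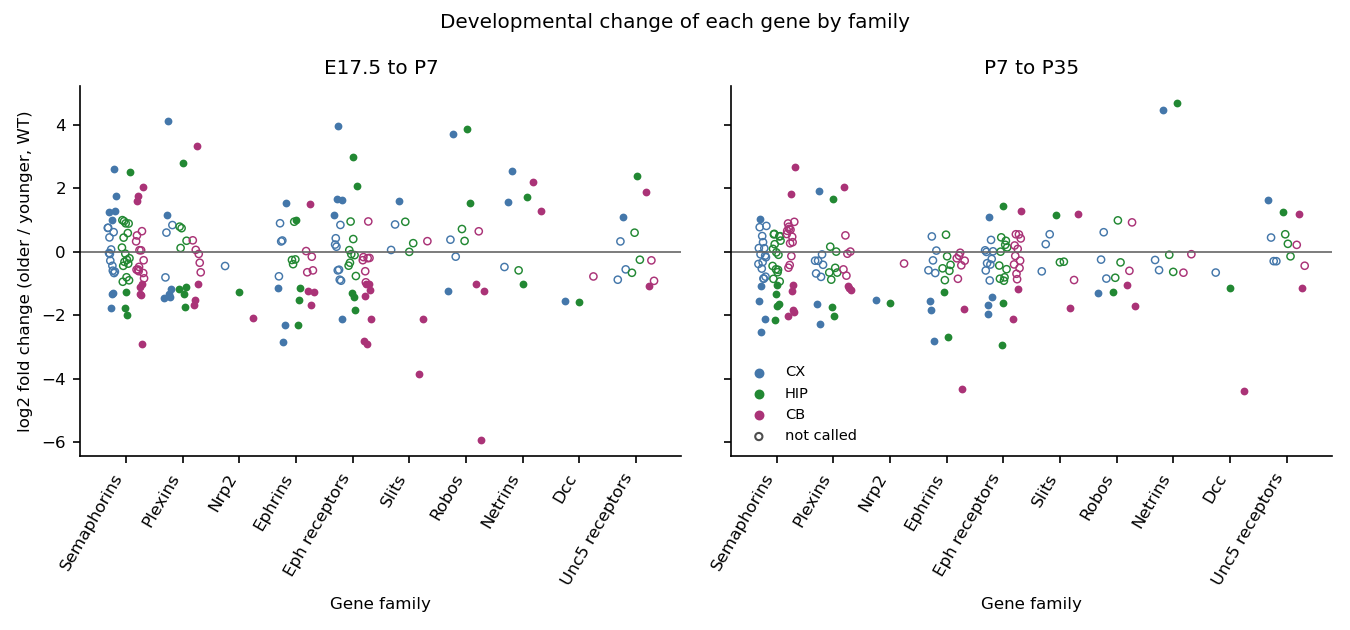
Change of every tested member in WT mice from E17.5 to P7 (left) and from P7 to P35 (right), as log2 fold change of the older over the younger age, by gene family and region (colours). Filled points are at least 2-fold with an adjusted p under 0.05, and open points are not. Robo3 in CB is the lowest point on the left (-5.92), and Dcc and Efna4 in CB are the lowest on the right (-4.39 and -4.33).

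At 1 developmental step, 10 members were counted as higher in one region and lower in another, and each difference between regions was tested in a fit added after the data were seen (region by age in WT mice, mouse as a block). These members were chosen by opposite calls in the same libraries. A large difference was thus set by the choice, and the fit gives its size but no independent support. From E17.5 to P7 there were 5 such members of 65 between CX and CB (7.69%, against 3.43% of all genes), 6 of 65 between HIP and CB (9.23% against 2.91%), and 2 of 66 between CX and HIP (3.03% against 0.358%). From P7 to P35 there were 2 of 65 between HIP and CB (3.08% against 0.802%). There were 0 in the other pairs, where 1.13% of all genes (CX and CB) and 0.0894% (CX and HIP) were counted. Robo3, a divergent Robo that lets commissural axons cross the midline, was the clearest. In CB its WT values were 6.83, 11.9 and 27.6 CPM (lowest, median and highest) at E17.5 and 0.125, 0.229 and 0.393 CPM at P7. In CX they were 0.0699, 0.8289 and 1.36 CPM and then 4.65, 11.1 and 19.4 CPM, and in HIP 0.177, 0.330 and 0.956 CPM and then 4.10, 6.50 and 9.67 CPM. The groups of the 2 ages did not overlap in any region. The step in CX exceeded that in CB by 9.43 ± 0.57 on the log2 scale, and that in HIP by 9.67 ± 0.60.

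The Eph receptors Epha10, which lacks kinase activity, and Epha6 also rose in CX and HIP and fell in CB from E17.5 to P7. For Epha10 the difference was 5.13 ± 0.31 for CX over CB and 4.16 ± 0.32 for HIP over CB, but its fall in CB (log2 -1.01 ± 0.14) was lost in 6 of 17 fits without 1 WT replicate. For Epha6 the differences were 3.95 ± 0.31 and 4.32 ± 0.31. Efna3 and Robo2 rose in HIP and fell in CB, with differences of 2.68 ± 0.12 and 2.72 ± 0.14, and Sema4a rose in CX and fell in CB, with a difference of 2.18 ± 0.20. The calls for Efna3 in HIP and Sema4a in CX rested near the limit, and were lost in 5 and 3 of 17 fits that left out 1 WT replicate. Ntn1 went the other way in HIP, where it fell (log2 -1.02, a call lost in 4 of 17 such fits) while it rose in CX and CB. The differences for Ntn1 were -2.30 ± 0.18 for HIP over CB and 2.58 ± 0.19 for CX over HIP. Efna5 rose in CX (log2 1.53) and fell in CB and HIP, with differences of 2.72 ± 0.49 for CX over CB and 2.45 ± 0.51 for CX over HIP. The HIP fall of Efna5 (log2 -1.15) was -0.58 without WT replicate 6 at E17.5, which stood at 17.6 CPM against a median of 3.64 CPM, and its call was lost. After P7, Slit1 rose in HIP and fell in CB (difference 2.91 ± 0.34), and Sema3c fell in HIP and rose in CB (difference -3.58 ± 0.26).

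The second comparison asked which members differed between regions of the same WT mice at one age, with the mouse as a block and the same limits. Between CX and CB, 11 of 65 members were higher and 12 lower in CX at E17.5, where 5.63% of all genes were higher and 13.3% lower. At P7 the counts were 26 and 13 of 65 (all genes 18.3% and 14.6%), and at P35 28 and 12 of 67 (15.7% and 11.5%). Between HIP and CB the counts of higher and lower members in HIP were 8 and 8 of 65 at E17.5 (5.57% and 8.48%), 22 and 13 at P7 (15% and 12%), and 25 and 12 of 67 at P35 (15.2% and 12.2%). Between CX and HIP they were 9 higher and 16 lower in CX at E17.5 (3.16% and 8.64%), 6 and 7 at P7 (6.28% and 4.17%), and 7 and 7 at P35 (6.76% and 4.67%).

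At E17.5, of 33 ligands and 32 receptors tested, 5 ligands and 3 receptors were higher in HIP than in CB, and 2 ligands and 6 receptors lower. Of all genes 5.57% were higher and 8.48% lower. Between CX and CB 5 ligands and 6 receptors were higher in CX and 6 of each lower (all genes 5.63% and 13.3%). These counts are small, and a split between ligands and receptors was not tested. Sema3c had WT values of 283 to 486 CPM in HIP, 90.45 to 166 CPM in CX and 7.58 to 15.15 CPM in CB, so that the 3 regions did not overlap. It was 35.03-fold higher in HIP than in CB and 12.2-fold higher in CX than in CB. Slit3 was 9.17-fold higher in HIP than in CB and 7.56-fold lower in CX than in HIP. The netrin receptor Unc5c was at 466 to 540 CPM in CB, 28.0-fold above HIP, and Robo3 was 34.3-fold above HIP. Plxna2 was 6.09-fold higher in CX than in CB, and Epha10 18.6-fold and Robo3 18.1-fold lower. Between CX and HIP, Robo2 (5.53-fold) and Efnb2 (3.93-fold) were higher in CX, and Nrp2 was 6.32-fold lower.

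By P7 Robo3 had changed side and was 40.5-fold higher in CX than in CB, and Slit1 was 25.99-fold higher. Sema3c (35.3-fold) and Epha6 (31.7-fold) led HIP over CB. Unc5b was 11.01-fold and Ntn1 6.76-fold lower in CX than in CB, and Ntn4 was 13.0-fold and Ntn1 7.52-fold lower in HIP. Efna5 (5.63-fold) and Sema3f (5.38-fold) were higher in CX than in HIP, while Nrp2 (log2 -1.75 ± 0.17) and Sema3e (log2 -1.68 ± 0.13) were lower. In P7 CX, WT replicate 4 stood at 43.0 CPM for Efna5 and the next library at 16.7 CPM.

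In the adult all 3 Slits were higher in CX and in HIP than in CB, as they were at P7. Slit1 showed the largest difference of any member. Its 5 WT values were 208, 166, 218, 196 and 199 CPM in HIP, 52.15, 53.5, 57.0, 48.5 and 51.9 CPM in CX, and 0.819, 0.482, 1.99, 0.764 and 0.570 CPM in CB. The regions did not overlap, and Slit1 was 59.8-fold higher in CX than in CB, 220.7-fold higher in HIP than in CB and 3.69-fold lower in CX than in HIP. Slit3 was 2.16-fold higher in CX than in CB, a call that was lost without the mouse that gave WT replicate 2. The netrin Ntn1 ran the other way, with 78.0 to 114 CPM in CB, 9.13 to 11.8 CPM in CX and 7.40 to 11.7 CPM in HIP, 9.26-fold lower in CX and 10.7-fold lower in HIP than in CB. Epha8 was 9.12-fold lower in CX and 24.3-fold lower in HIP than in CB. Ntn5 was 55.75-fold and 42.1-fold higher in CX and HIP, against CB values of 0.0254 to 0.107 CPM. It passed the filter there through its CX and HIP levels, so the size of these folds rests on CB values near the floor.

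A group of Eph receptors kept one pattern from P7 on. Epha4, Epha5, Epha6, Epha7 and Ephb6 were higher in both CX and HIP than in CB at P7 and at P35. Epha4 in adult HIP (605 to 849 CPM in WT libraries) was 16-fold above CB, and in adult CX (399 to 468 CPM) 9.31-fold. At E17.5 Epha4 was 3.38-fold higher in HIP than in CB, and its CX values of 271 to 439.5 CPM overlapped the CB values of 216 to 345 CPM. Dcc changed side with age: it was lower in CX than in CB at P7 (log2 -1.16) and 6.18-fold higher in CX and 8.80-fold higher in HIP at P35. Within the forebrain the adult differences were led by the class 3 semaphorin Sema3a, with 39.6 to 57.2 CPM in CX and 3.56 to 6.23 CPM in HIP (10.3-fold higher in CX), and by Efna5 (8.42-fold higher in CX). Epha6 was 3.39-fold lower in CX than in HIP.

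The same steps and regional differences were fitted in HET mice. Of the 149 developmental calls in WT and the 161 in HET mice, 141 were shared, 94.6% and 87.6% of each list. Of the 242 regional calls in each genotype, 230 were shared (95.0% of each). The same sharing was not counted over all genes, so it cannot be said whether it is particular to these members. The lists that differed most were the rises in HIP from E17.5 to P7, with 9 members in WT and 17 in HET mice and 8 shared. Without WT replicate 6 at E17.5 the WT count was 14. A genotype difference in this step alone was not tested. The interaction fit by age in HIP, given below, took all ages together and called 0 of 66 members at an adjusted p under 0.1 (edgeR). At an unadjusted p under 0.05 it gave 7 of 66 members (10.6%), against 4.09% of all genes.

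The third comparison, the one the study was built on, asked whether any of these genes differed between HET and WT mice within each age and region. No member passed an adjusted p under 0.1 in edgeR's quasi-likelihood test: 0 of 65, 64 and 65 members were called in CX, HIP and CB at E17.5, 0 of 65, 65 and 66 at P7, and 0 of 65, 66 and 66 at P35, and DESeq2 called 0 as well. RUVs factors of unwanted variation were also used by the study, in a model that held sex and with the number of factors chosen from the data. Here, with 3 or 5 factors and no term for sex, some members were called. In P7 HIP it was 1 of 65 (1.54%, Sema7a) with 3 or 5 factors, where 0.789% and 1.17% of all genes were called. In P7 CB it was 2 of 66 (3.03%) with 5 factors, against 1.46% of all genes. In P35 HIP it was 4 of 66 with 3 factors and 7 with 5 (6.06% and 10.6%), against 1.1% and 2.8%, and in P35 CB 1 of 66 with 5 factors (1.52%), against 1.05%. Among all genes the share called was 0.00603%, 0.00586% and 0.00568% at E17.5, 0.00566%, 0.00563% and 0.0057% at P7, and 0.00569%, 0.00584% and 0.00584% at P35, which is 1 gene, Cul3, in each dataset. At an unadjusted p under 0.05 there were 0, 0 and 1 members at E17.5, where 1.67%, 2.29% and 3.5% of all genes passed. Whether the replicate numbers pair the mice was not settled. In E17.5 CX a fit with the replicate number as a block gave 7 of 65 members (10.8%) and 14.5% of all genes, and called 0 members. There were 0, 5 and 4 at P7 (3.22%, 5.05% and 4.89% of all genes) and 5, 8 and 7 at P35 (3.66%, 6.25% and 14.4%). At P35 these were 7.69%, 12.1% and 10.6% of the members tested. Without libraries high in choroid plexus markers, which leaves 3 WT and 2 HET libraries, the P35 CB count was 0 of 65, with 1.52% of all genes. In HIP the same setting gave 7 of 65 at E17.5 (10.8%, all genes 6.69%) and 4 of 65 at P7 (6.15%, all genes 3.4%). In P35 HIP it gave 14 of 66 (21.2%, all genes 12.4%). In P7 CB it left 1 HET library, so no count is given. Without WT replicate 6 the P35 CB count was 14 of 66 (21.2%), with 15.8% of all genes.

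Most differences were small. The median log2 difference of the members, HET over WT, lay between -0.13 (E17.5 HIP) and 0.06 (E17.5 CB), and that of all genes between -0.003 and 0.007. Counting direction alone, members were higher in HET in 26 of 65, 18 of 64 and 43 of 65 cases in CX, HIP and CB at E17.5, where 49.5%, 50.8% and 51.1% of all genes were. The counts were 26 of 65, 41 of 65 and 41 of 66 at P7 (50.0%, 52.5% and 51.7% of all genes) and 50 of 65, 49 of 66 and 19 of 66 at P35 (52.0%, 48.7% and 50.3%). The P35 CB count of 19 became 38 without the 2 WT libraries with more hippocampal marker signal. Members of one tissue share libraries, so these counts are descriptions.

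**Figure D4:**
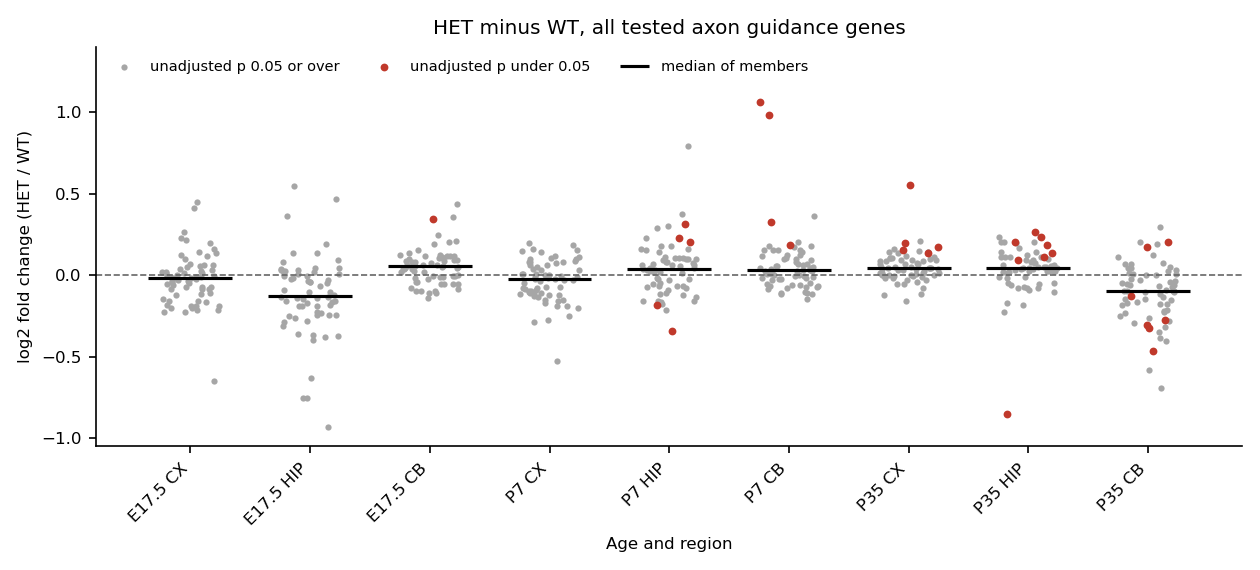
Difference between HET and WT mice for every tested member in the 9 datasets, as log2 fold change of HET over WT. Red points have an unadjusted p under 0.05, grey points do not, and black lines are medians, which run from -0.13 in E17.5 HIP to 0.06 in E17.5 CB. No point passes an adjusted p of 0.1, and the highest is Sema3b in P7 CB (1.06).

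Sema7a, a membrane-anchored semaphorin that acts on axon growth and immune cells, was lower in P7 HIP of HET mice. Its WT values were 85.8, 92.7 and 94.5 CPM (lowest, median and highest) and its HET values 55.3, 72.6 and 85.0 CPM, and the groups did not overlap. The log2 difference was -0.34 ± 0.098 (p 0.00367, adjusted p 0.833, edgeR quasi-likelihood). The HET library with the lowest value, replicate 1, also had summed choroid plexus markers at 4317 CPM, and without it the difference was -0.28. At E17.5 the HIP values of Sema7a were 54.0 to 67.6 CPM in WT and 48.3 to 64.0 CPM in HET, and at P35 79.4 to 88.45 CPM and 75.55 to 87.4 CPM, with overlap at both ages. Sema6a was the next in P7 HIP, with a log2 difference of 0.32 ± 0.10 (p 0.00813) and overlapping groups.

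Sema3b, a secreted semaphorin, had the largest positive difference, 1.06 ± 0.35 in P7 CB (p 0.00927, adjusted p 0.915, edgeR). Its WT values were 1.26, 1.77 and 4.17 CPM (lowest, median and highest) and its HET values 1.33, 4.30 and 6.35 CPM. Choroid plexus markers were above 500 CPM in 5 of the 6 HET libraries and 1 of the 6 WT libraries of P7 CB, and these were the 6 libraries with the highest Sema3b. Sema3f had a difference of 0.33 ± 0.11 (p 0.012). Without those 6 libraries only 1 HET library remained against 5 WT libraries. The values were then -0.3 for Sema3b and -0.06 for Sema3f, and a direction cannot be read from 1 HET library. The part of choroid plexus tissue in these differences was not tested.

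**Figure D5:**
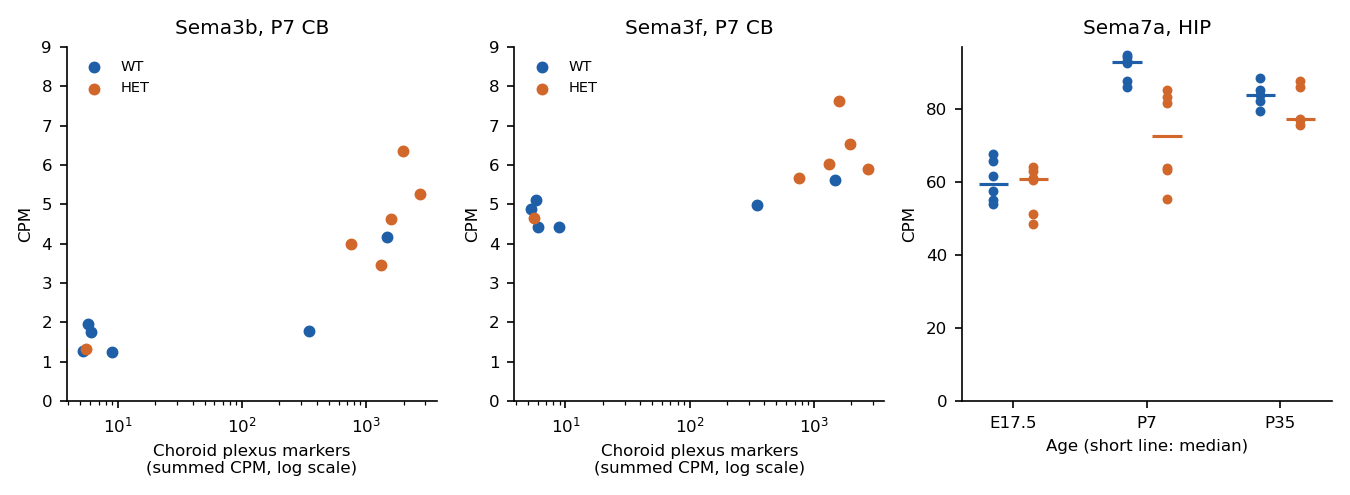
Left and middle, Sema3b and Sema3f (CPM) in each P7 CB library against the summed CPM of 6 choroid plexus markers on a log axis, WT in blue and HET in orange; right, Sema7a in HIP (CPM) by age with a line at each median. Libraries with more choroid plexus signal have more Sema3b, and Sema7a is lower in HET than in WT at P7 without overlap (55.3 to 85.0 against 85.8 to 94.5 CPM).

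In the adult HIP, Sema4a, a membrane semaphorin, was the member with the smallest p. Its WT values were 16.3, 14.3, 16.7, 16.4 and 16.35 CPM and its HET values 19.3, 21.95, 18.2, 19.0 and 17.7 CPM, without overlap, a log2 difference of 0.26 ± 0.067 (p 0.00169, adjusted p 0.796, edgeR). It was among the members called with RUVs factors, at an adjusted p of 0.0817 with 3 factors and 0.0162 with 5 (edgeR likelihood ratio test). Sema6c was next at 0.20 ± 0.076. In adult CX, Slit1 had WT values of 52.15, 53.5, 57.0, 48.5 and 51.9 CPM and HET values of 57.3, 59.5, 55.8, 58.7 and 61.7 CPM, which overlapped by 1 library a side, a log2 difference of 0.17 ± 0.047 (p 0.00277). Sema6c in the same tissue was at 0.19 ± 0.064.

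In adult CB, Epha4 had WT values of 47.8, 48.6, 43.0, 47.2 and 44.8 CPM and HET values of 55.4, 51.1, 53.3, 49.8 and 55.55 CPM, without overlap, a log2 difference of 0.17 ± 0.051 (p 0.00565, adjusted p 0.295, edgeR). Sema5a, a transmembrane semaphorin, had WT values of 48.1, 48.3, 82.4, 72.5 and 46.5 CPM and HET values of 46.0, 43.0, 42.15, 44.4 and 43.3 CPM, a log2 difference of -0.47 ± 0.15 (p 0.0105). The 2 high WT libraries, replicates 3 and 5, were those with hippocampus markers at 346 and 257.5 CPM, and without them the difference was -0.15. At E17.5 the smallest p was for Efna5 in CX (-0.65 ± 0.38) and in HIP (-0.93 ± 0.44), and for Epha2 in CB (0.34 ± 0.16). The Efna5 differences were -0.33 in CX without WT replicate 3 and -0.37 in HIP without WT replicate 6. At P7 in CX it was for Sema3c (0.11 ± 0.054). The next in these datasets were Sema7a in E17.5 CX (-0.15 ± 0.095), Efnb2 in E17.5 HIP (-0.75 ± 0.36), Efna3 in E17.5 CB (-0.10 ± 0.047) and Epha7 in P7 CX (0.12 ± 0.061). All of these groups overlapped.

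Whether the genotype difference itself depended on region or age was tested with interaction terms. By region, 0 members were called at an adjusted p under 0.1 at any age, where 0.0%, 0.0% and 0.00525% of all genes were called at E17.5, P7 and P35. At an unadjusted p under 0.05 there were 0 of 65, 7 of 66 and 11 of 67 members, against 2.5%, 4.57% and 15.8% of all genes. By age, 0 members were called in CX, HIP and CB, with 0.0% of all genes called in each. At an unadjusted p under 0.05 there were 0, 7 and 7 of 66, against 2.1%, 4.09% and 13.2% of all genes. The smallest p by region was 0.132 for Efna5 at E17.5 and 0.019 for Sema6a at P7. In the adult it was that of Plxnd1, the Sema3e receptor, at 0.00121 (adjusted p 0.255, edgeR), and by age it was that of Ntn5 in CX at 0.0649, and of Efna5 in HIP at 0.018 and in CB at 0.0118 (adjusted p 0.32).

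A list of 53 other genes of the same pathways, cytoplasmic effectors such as the Srgap and Crmp families with further guidance factors such as Draxin and Rgma, served for comparison. No gene of it was called between genotypes in any of the 9 datasets (edgeR, adjusted p under 0.1). At an unadjusted p under 0.05 there were 0, 1 and 1 in CX, HIP and CB at E17.5 (all genes 1.67%, 2.29% and 3.5%). The counts were 1, 0 and 2 at P7 (3.22%, 5.05% and 4.89%) and 2, 2 and 8 at P35 (3.66%, 6.25% and 14.4%). The 8 in P35 CB were 15.4% of the 52 tested there. In E17.5 HIP 8 of the 53 were higher in HET (15.1%, against 50.8% of all genes). In the interaction by region at P35, 18 of the 53 had an unadjusted p under 0.05 (34.0%, against 15.8% of all genes and 16.4% of the members), and 0 were called (edgeR). From E17.5 to P7, 7 rose and 4 fell in CX (all genes 22.8% and 14.5%). In HIP 9 rose and 4 fell (17.7% and 13.0%), and in CB 2 rose and 9 fell (9.92% and 10.0%). From P7 to P35, 5 rose and 15 fell in CX (all genes 10.3% and 11.4%). In HIP 4 rose and 15 fell (7.84% and 10.0%), and in CB 13 rose and 8 fell (16.5% and 17.53%). At P7, 23 of the 53 were higher and 5 lower in CX than in CB (43.4% and 9.43%, all genes 18.3% and 14.6%).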

How the data were processed

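RNA was measured by stranded, ribosome-depleted total RNA-seq. The authors trimmed reads with cutadapt 1.14, aligned them with STAR 2.5.3a and estimated counts with RSEM 1.3, on GRCm38.p5 (mm10) per the submitters' processing notes. The deposited values are expected counts per gene, which were rounded to whole numbers (5.76% were not whole). Members and lists were chosen with earlier results of these data known. Of 108 libraries from 36 mice, 6 from 2 adult mice were left out, because the labels and the study's sample table give them opposite genotypes.

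Genes were filtered with filterByExpr (at least 10 counts) and normalized with TMM in edgeR 4.0.16 (R 4.3.3). Groups were compared with the quasi-likelihood test and Benjamini-Hochberg adjustment over all genes, with the mouse as a block between regions. Standard errors were derived from the quasi-likelihood F value, as absolute log2 change over root F. CPM used TMM library sizes, and totals of 15126114 to 44411282 counts limit the precision of low genes. DESeq2 1.42.0, the likelihood ratio test, RUVs, upper-quartile normalization, no filter and left-out libraries were alternatives. The scripts were tested on simulated data. No label says whether same-numbered mice share a litter. In E17.5 CX all 6 same-numbered WT and HET pairs deviated together at a correlation over 0.1 (0.113 to 0.757). The same mice gave E17.5 HIP and CB, where 5 of 6 pairs did so, with medians of 0.331 and 0.294. In no other dataset were all pairs over 0.1. Whether the numbers pair the mice was not settled, so fits with and without the block are given for E17.5. The blocked fit called 0 members in E17.5 CX, HIP and CB.

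Named genes were, among members, the 2 with the smallest p per genotype dataset, the 3 largest rises and falls per developmental comparison and the 2 largest per direction per regional comparison, among called members with a mean of at least 1 CPM, and the smallest p per interaction. Other members were named when families were described whole. Promoters came from RefSeq on GRCm38.p6.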

Additional observations from a re-analysis of the deposited data

Results flagged for a closer look

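Of 148 groups of 5 or 6 libraries tested for named genes, 16 held 1 library far from the rest by Dixon's criterion, which chance alone gives in about 1 group in 20. In P7 CX, WT replicate 4 was high for Efna5 (42.99 CPM, next 16.7 CPM) and Sema4g (83.81 CPM, next 47.92 CPM), WT replicate 2 for Ntn1 (21.28 CPM, next 15.34 CPM), and HET replicate 3 was low for Epha7 (101.8 CPM, next 119.9 CPM). In E17.5 CX, WT replicate 3 was high for Plxna2 (920.0 CPM, next 624.8 CPM) and Robo2 (497.8 CPM, next 354.5 CPM). In E17.5 HIP, WT replicate 6 was high for Epha10 (2.613 CPM, next 1.056 CPM) and WT replicate 4 low for Plxnb3 (0.6515 CPM, next 1.206 CPM). In P7 HIP, WT replicate 6 was high for Epha10 (11.4 CPM, next 8.015 CPM) and Ntn4 (7.172 CPM, next 5.388 CPM) and low for Epha6 (116.6 CPM, next 140.1 CPM). In P7 CB, WT replicate 6 was high for Sema3b (4.168 CPM, next 1.97 CPM) and Sema3c (8.395 CPM, next 4.468 CPM), and WT replicate 3 for Unc5b (141.9 CPM, next 126.1 CPM). In the adult, WT replicate 2 was low for Sema4a in HIP (14.27 CPM, next 16.29 CPM) and WT replicate 3 high for Slit1 in CB (1.99 CPM, next 0.8185 CPM).

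Developmental steps that ran in opposite directions in 2 regions were tested as a difference of log2 fold changes, 15 in all. The steps were chosen by their opposite calls in the same libraries, so the differences describe size only. From E17.5 to P7 the difference of CX minus CB was 9.43 for Robo3, 5.13 for Epha10, 3.95 for Epha6, 2.72 for Efna5 and 2.18 for Sema4a. The difference of HIP minus CB was 9.67 for Robo3, 4.32 for Epha6, 4.16 for Epha10, 2.72 for Robo2, 2.68 for Efna3 and -2.3 for Ntn1. The difference of CX minus HIP was 2.58 for Ntn1 and 2.45 for Efna5. From P7 to P35 the difference of HIP minus CB was 2.91 for Slit1 and -3.58 for Sema3c.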

How the results depend on the processing

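Of the counts of called members under the alternatives, 681 stayed within 1.5 times the main count and 9 did not, and the cause was not tested. Of the other values 1910 stayed the same, meaning direction and side of the threshold for named genes and within 1.5 times for counts. Another 7 newly passed the threshold, and 2 changed direction, Sema3b and Sema3f in the P7 CB fit with 1 HET library given below. A further 85 counts moved by more, 79 of them at an unadjusted p under 0.05 and 6 of members higher in HET. The study used RUVs factors in a model that also held sex. With RUVs factors and no term for sex, members were called between genotypes here: 1 with 3 or 5 factors in P7 HIP (Sema7a), 2 with 5 in P7 CB, 4 with 3 and 7 with 5 in P35 HIP, and 1 with 5 in P35 CB. The likelihood ratio test called 1 of 67 members by region at P35 (1.49%, Plxnd1), where it called 0.389% of all genes. The rises in HIP from E17.5 to P7 numbered 17 in HET mice, and 8 to 14 with 1 WT replicate left out, 14 being without WT replicate 6 at E17.5. Without libraries high in choroid plexus markers, a setting chosen after seeing the data, the P7 CB values were -0.3 for Sema3b and -0.06 for Sema3f, but they rest on 1 HET library against 5 WT libraries, from which no direction can be read. Leaving out 1 library ended 16 of 149 developmental calls in at least 1 fit, and leaving out 1 mouse with all its regions ended 19 of 242 regional calls, with no change of sign. The replicate block called 0 members in the 9 genotype datasets and changed no call. At an unadjusted p under 0.05 it gave 7 members in E17.5 CX (14.5% of all genes) against 0 without it (1.67%). In E17.5 HIP and CB it gave 8 and 9 (10.1% and 9.26% of all genes), against 0 and 1 without it (2.29% and 3.5%). Low levels, as for Ntn5 and Epha1, limit what these depths can show.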
